A study of Mus musculus with 12 samples.

Results

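The mouse genes Fv1 and Miip lie head to head on chromosome 4 and share 1 promoter region. This region was followed here as a window from 1000 bp before to 500 bp after the annotated start of Fv1 in build mm9. The deposited table lists 153 cytosines in the window, of 8119606 listed in all. Of these 153, 44 had a methylation level that reached 20% in 1 or more of the 12 libraries. The window was chosen from the same values, because its methylation changed against the genome-wide trend between passages and types of embryonic stem cell. Its levels in those cells, and its rank among tiles and promoters there, are therefore a description and not a finding. Just outside the 20% limit lay a cytosine with a highest level of 19.9%, and just inside it was one at exactly 20%.

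The assay was RRBS, reduced representation bisulfite sequencing, in which DNA is cut at CCGG by the enzyme MspI, short fragments are kept, and bisulfite converts unmethylated cytosines. The study asked what stands in the way of mouse reproduction from parents of 1 sex, and used haploid embryonic stem cells (ESCs) in place of a gamete. Wild-type (WT) ESCs were androgenetic haploid (ahESC, genome of paternal origin), parthenogenetic haploid (phESC, genome of maternal origin) or diploid, each at early and at late passage, with no passage numbers in the labels. Bimaternal (BM) animals came from a phESC injected into an oocyte, and bipaternal (BP) embryos from an ahESC and a sperm injected into an enucleated oocyte. The BM and BP samples carried the label DMR-KO, for deletion of differentially methylated regions, and the labels do not say which regions. The embryo libraries were of whole WT, BM or BP embryos at embryonic day E15.5. The brain libraries were of an adult WT brain, an adult BM brain and a BM brain at E19.5. There was 1 library per group, and the labels give neither the number of animals nor the number of clones in it. No value below therefore has a replicate error, and no comparison was tested.

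The files hold percentages without coverage, so the number of reads behind a level is not known, and no interval can be given. Cytosines with a value numbered 3773871 to 5903648 per library. The late ahESC, late phESC, BM adult brain and WT adult brain libraries hold 2209 to 7697 positions on the unplaced sequence of chromosome Y, and the other 8 libraries hold 0. Comparisons of late haploid cells with early haploid or late diploid cells, of the BM adult with the BM E19.5 brain, and of the WT adult brain with the WT embryo cross these sets of libraries, so set and group cannot be told apart in them. The comparisons of early with late diploid cells and among early ESCs do not cross them. The late phESC library also has no value at any CCGG cytosine of the window. Among 8 marker genes of ESCs fixed as a list, the promoters of 2 were measured, Klf4 and Sox2. Both stayed at or below 0.967% in the 6 ESC libraries, but were also low in embryos and brain, so they do not check the cell type. Of 5 fibroblast and feeder genes, Twist2 was measured in all 6 ESC libraries, with at most 1.70%, and of 6 neural genes Olig2 was measured in 5 of them, with at most 0.90%. Other cells in a library were therefore not checked with these markers. Positions with a value on chromosome Y itself numbered 1587 and 1489 in early and late diploid cells. They numbered 22 and 1161 in early and late ahESCs, and 97 and 654 in early and late phESCs. The WT, BM and BP embryos had 1470, 51 and 1185. The BM brain at E19.5 had 106, the BM adult brain 890 and the WT adult brain 2246. Whether these counts reflect other cells or the set of libraries was not tested.

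Fv1 is a retroviral restriction gene of the mouse. It descends from the gag gene of an ancient endogenous retrovirus, and its protein binds the capsid of an incoming murine leukaemia virus after entry and blocks the infection before integration. Miip, the migration and invasion inhibitory protein, binds the growth factor regulator Igfbp2 and has been studied as a brake on cell movement in tumours. Methylation of CpG dinucleotides in a promoter usually accompanies low transcription. CpG-rich promoters are mostly free of it, in ESCs and in tissues. No RNA was measured here, so the levels below say nothing of the activity of either gene.

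The sequence of the region is shown first, because some of the CpGs in it are sites measured. The table gives positions without letters, so the sequence was placed by matching the RefSeq promoters of Fv1 and Miip (build GRCm38.p6) to the pattern of listed positions. All 114 listed positions inside the 562 bases they span fell on a CG or a GC at 1 shift, and the next best of 50001 shifts matched 71. Positions are given in bp from the first base of the Fv1 start codon, which is 0 and lies at 147243088 of chromosome 4 in mm9. The cytosines measured in late diploid cells run from -558 to 71, and negative positions lie on the side of Miip. The first line runs from position -162 to 49 on the plus strand, with each CpG in capitals. It spans the 162 bp between the furthest annotated Miip start and Fv1, and runs into the Fv1 coding sequence. Its CpGs with minus strand cytosines at -68, -50, -36, -27, 13 and 17 had a value in late phESCs alone, on that strand. The next 2 lines show the CpGs of the highest and lowest level in the untranslated first exons of Miip, at positions -190 and -487. The last shows the CpG at position 59 within Fv1, which had the highest mean over both strands and both methylated libraries, late diploid cells and early phESCs. In these 3 lines the capitals mark the CpG named.
between Miip and Fv1, chr4:147868817-147869028: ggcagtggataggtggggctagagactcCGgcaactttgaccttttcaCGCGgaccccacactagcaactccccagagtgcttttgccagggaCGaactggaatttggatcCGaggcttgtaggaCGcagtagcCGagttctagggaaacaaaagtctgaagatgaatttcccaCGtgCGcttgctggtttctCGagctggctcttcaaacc
Miip exon, highest CpG, chr4:147868775-147868804: gtagtactcggttaCGcaatttccggatgt
Miip exon, lowest CpG, chr4:147868478-147868507: taaaaggacgccaaCGctctccgcccgaaa
Fv1 coding, highest CpG, chr4:147869024-147869053: aaacctgaacttgcCGaggactctccggat

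The gene model of Fv1 holds coding sequence alone, 1380 bp in 1 exon, so its annotated start is its start codon and the true start of its transcript is not marked. The first exons of Miip run on the other strand from -163 to -610. They are untranslated within the window, and the nearest coding base of Miip lies at -2622. Most of the window's measured CpGs therefore lie in untranslated exons of Miip. The Fv1 promoter, from 250 bp before to 50 bp after its start, held 13 CpGs. The median of 32817 RefSeq promoters was 7, and 62.1% of them held fewer than Fv1. It held 1 CCAAT box (CCAAT, found in 37.4% of the promoters), 1 ETS core (CCGGAA, 14.9%) and 1 E-box (CACGTG, 7.15%), searched on both strands. It held neither the GC box GGGCGG, present in 35.6% of the promoters, nor the TATA box TATAAA, present in 13.6%. The ETS core overlaps the MspI site at -181.

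Of the 153 listed cytosines 56 were CpGs outside CCGG, 16 were CpGs inside CCGG and 81 were GpCs that are not CpGs. Of the 44 that reached 20%, 33 were CpGs outside CCGG and 11 were CpGs inside it. None of the 81 GpCs reached 20%. GpC means ran from 0 to 1.22% over the 12 libraries, so among the listed cytosines the methylation of the window was CpG methylation. Cytosines outside CG and GC are not listed, so their level is not known. In the next paragraphs a level is the mean over CpG cytosines outside CCGG, unless the cytosines that reached 20% are named.

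Of the 12 libraries 2 were methylated over the promoter, late diploid ESCs and early phESCs. In diploid cells the level was 0.406% at early passage and 27.3% at late passage, over 41 cytosines in each. In phESCs the order was the opposite, with 31.7% at early passage over 41 cytosines and 0.691% at late passage over 47. In ahESCs both levels were low, 1.81% at early passage over 41 cytosines and 3.06% at late passage over 40. The late library was thus the higher one in diploid cells and the lower one in phESCs, and in ahESCs the passages differed little. Each level rests on 1 library, and the haploid passage comparisons cross the sets of libraries.

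In the embryos and brains the promoter was nearly free of methylation. The level was 0.444% in the WT embryo and 1.38% in the BM embryo, over 41 cytosines in each, and 0.520% over 22 in the BP embryo. It was 3.36% over 38 cytosines in the BM brain at E19.5, 0.266% over 36 in the BM adult brain and 0.592% over 48 in the WT adult brain. The BM adult brain has 0 such values between the genes or in Fv1, and the BM brain at E19.5 has 3 of 6 from -312 to -189. No CpG outside CCGG passed 10% in any of these 6 libraries. At the cytosines measured in them, the BM embryo and the BM brains did not have the levels of the early phESC library. The late phESC library, at 0.691%, was also low, and BM animals came from an oocyte as well as a phESC. A change between cell and animal was not tested.

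**Figure D1:**
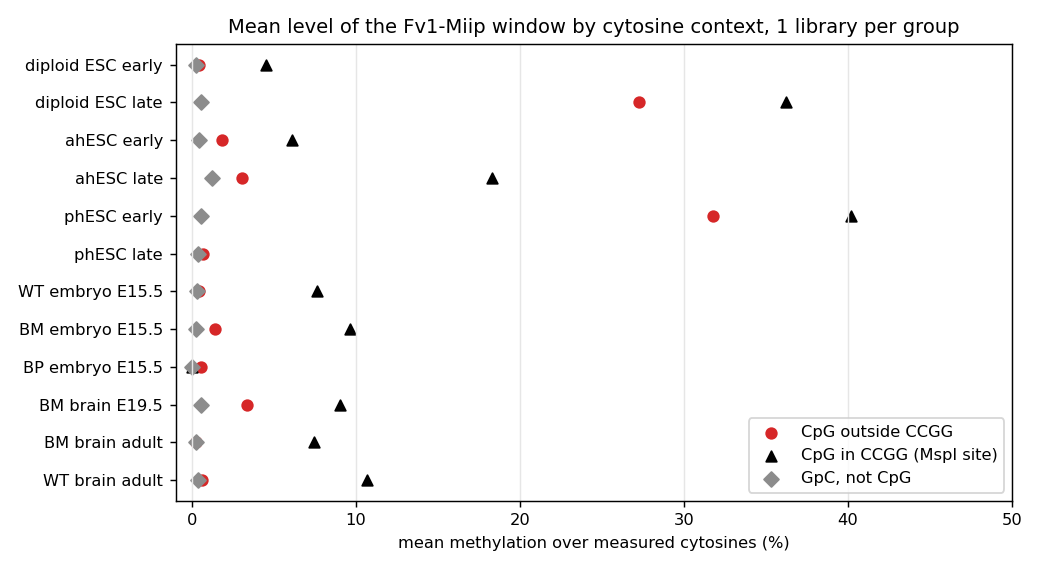
Mean methylation (%) of the Fv1-Miip window in each of the 12 libraries, 1 point per cytosine context: CpG outside CCGG (circles), CpG in CCGG (triangles) and GpC that is not CpG (diamonds). Late diploid ESCs and early phESCs stand at 27.3% and 31.7% outside CCGG, and the other 10 libraries at 0.266 to 3.36%, while GpCs stay at or below 1.22%.

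In diploid cells most measured CpGs of the promoter were higher at late passage. Of 41 CpG cytosines outside CCGG 40 were higher and 1 was lower, and 19 were higher by 25 points or more, the size at which a difference was called. Over the 41 cytosines that reached 20% and were measured in both libraries, the mean went from 1.23% to 32.6%, by 31.4 points. Over all listed cytosines of the window the difference was 14.9 points, which is within 25. Of the 44 cytosines that reached 20%, 41 did so in late diploid cells or early phESCs, so that set was chosen partly for high values there, and no count over it is read as a result. At late passage it ran from 13.4% to 70.1%, and at early passage from 0 to 6.63%. Among 49981 tiles across the genome, each as long as the window, 0.024% were called higher at late passage and 74.5% lower, and the median tile fell by 39.2 points. Only 8 tiles rose by more than the window, which was chosen for such a change.

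In phESCs the promoter was lower at late passage. The mean over 27 cytosines that reached 20% and were measured in both libraries was 34.1% at early passage and 0.943% at late passage, a fall of 33.2 points. Over all listed cytosines the difference was -15.1 points, within 25. Of 34 CpG cytosines outside CCGG 33 were lower at late passage and 0 higher, and 19 fell by 25 points or more. This comparison crosses the sets of libraries. Of 17376 tiles 2.77% were called lower and 0.144% higher, and the median tile fell by 5.45 points. The promoter thus moved in the direction of most tiles here, and only 96 tiles fell further.

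In ahESCs the passage difference was small. It was +3.32 points over 40 cytosines that reached 20%, with 27 higher and 13 lower at late passage, and 1 of the 40 rose by 25 points. Outside CCGG it was +1.30 points, and 0 of 40 cytosines passed 25 points. Of 42505 tiles 59.5% were called lower at late passage and 0.0518% higher. At early passage the ahESC mean over these 40 cytosines was 2.82%.

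At early passage the phESC promoter stood above both other types. It was 36.1 points above diploid cells and 34.5 points above ahESCs over the 41 cytosines that reached 20%. Over all listed cytosines the differences were 17.0 and 16.2 points, within 25. Of 41 CpG cytosines outside CCGG 39 were higher in phESCs and 1 was lower in each comparison. These comparisons share the phESC library. Against diploid cells 0.114% of tiles were called higher in phESCs and 54.2% lower. Against ahESCs 0.0773% were called higher and 47.2% lower. Early ahESCs and diploid cells differed by 1.62 points, and 0 of 41 cytosines passed 25 points in that comparison, in which 0.309% of tiles were called higher in ahESCs and 0.33% lower.

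At late passage the order of the types was another one, with diploid cells highest. Late ahESCs were 26.5 points below late diploid cells over 40 cytosines that reached 20%, and 38 of 40 CpG cytosines outside CCGG were lower and 1 higher. Late phESCs were 27.6 points below late diploid cells over 27 cytosines that reached 20%, and 33 of 34 outside CCGG were lower and 0 higher. Called lower were 0.132% and 0.458% of the tiles in these comparisons, and 1.32% and 1.62% were called higher. Both differences cross the sets of libraries and lie close to the limit. Over all measured CpGs outside CCGG they were -24.1 and -24.0 points, and over all listed cytosines -12.3 and -12.6, all within 25. The 2 late haploid types differed by -1.95 points (phESC minus ahESC), where 3.16% of tiles were called higher and 1.55% lower.

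**Figure D2:**
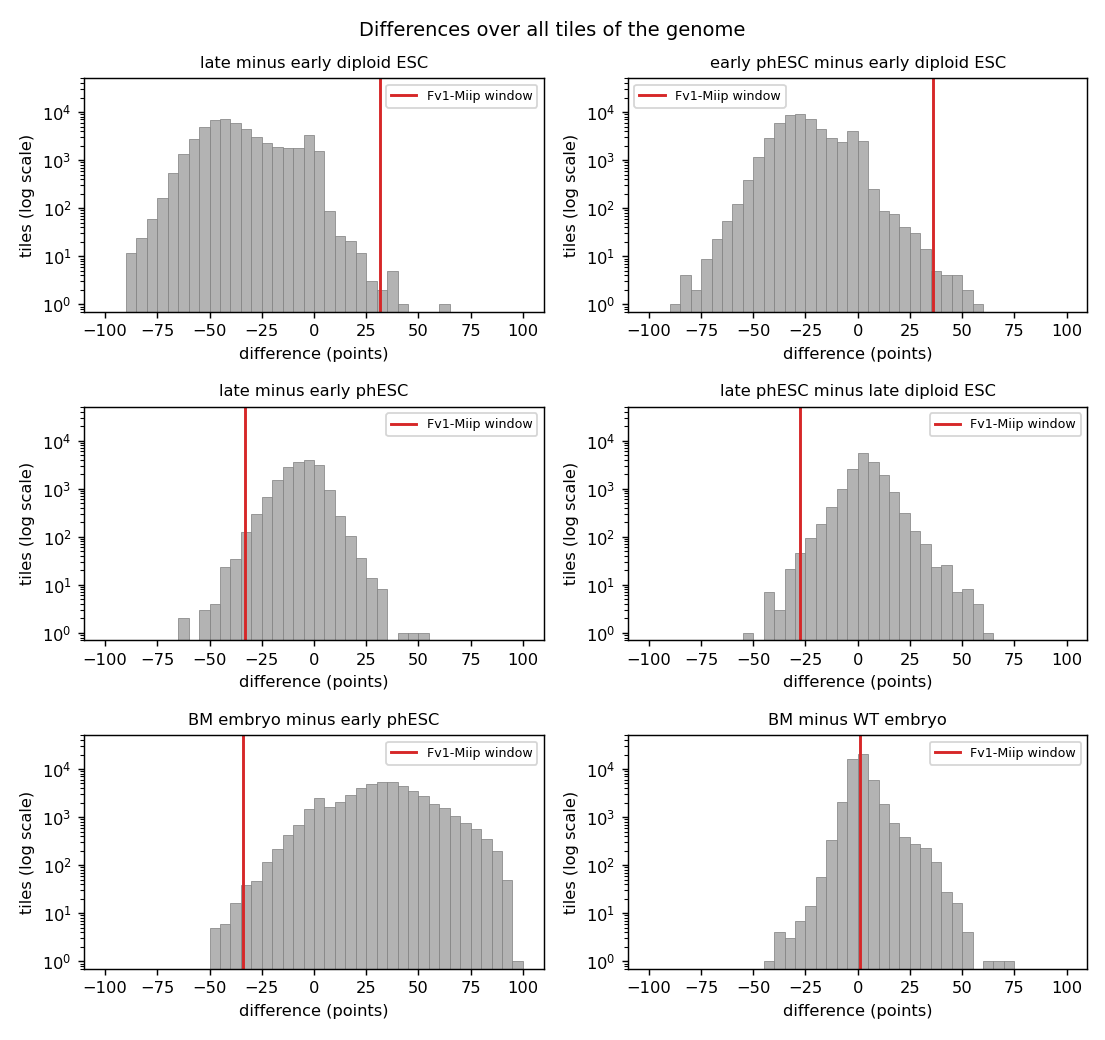
Differences between libraries in percentage points (x axis) over all tiles, each as long as the window, with enough measured cytosines (y axis, number of tiles on a log scale), in 6 comparisons, with the Fv1-Miip window as a red line. The window lies at +31.4 in diploid passage and +36.1 in early phESCs against diploid cells, where most tiles lie below 0, and at -34.1 in the BM embryo against early phESCs, where most tiles lie above 0.

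Within the promoter the methylation was uneven, and it was uneven in nearly the same way in both methylated libraries. In early phESCs the mean was 25.3% from -550 to -475, 32.9% from -444 to -323, 42.0% from -312 to -189, and 37.3% from -114 to 60. In late diploid cells these 4 stretches, each between a pair of MspI sites, had 18.1%, 32.0%, 37.3% and 35.0%. The last stretch has values in these libraries only at its ends, from -114 to -111 and from 31 to 60. Its 4 cytosines between the genes had a mean of 17.4% in early phESCs and 23.7% in late diploid cells. The lowest pair of CpG cytosines in the Miip exons, at -487 and -486 on the plus and minus strand, had 10.7% and 11.7% in early phESCs and 8.48% and 12.7% in late diploid cells. The highest pair there, at -190 and -189, had 55.8% and 65.6% in early phESCs and 56.5% and 64.1% in late diploid cells. Both CpGs are printed above, and both lie in untranslated exons of Miip.

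The Fv1 coding sequence was measured at 4 CpG cytosines outside CCGG, those of the CpGs at 31 and 59. They had a mean of 57.1% in early phESCs and 46.3% in late diploid cells. The Miip exons had 30.4% and 25.4% over 33 cytosines. The CpG at 59 had 67.1% on the plus strand and 61.6% on the minus strand in early phESCs, and 70.1% and 44.1% in late diploid cells. In early diploid cells the same 4 coding cytosines had a mean of 0.379%, with a highest value of 1.52%.

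Over 41 CpG cytosines outside CCGG, early phESCs and late diploid cells had a Pearson correlation of 0.871, given as a description. The points share 2 libraries, their fragments and their base composition. The median absolute difference was 6.20 points, and 0 of the 41 differed by 25 points. Early phESCs were higher at 27 cytosines and late diploid cells at 13. The largest excess of phESCs was 23.1 points and the largest excess of diploid cells 12.2 points (-12.2 as phESC minus diploid). The libraries thus differed little in level and pattern, although they are of different ESC types and passages.

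**Figure D3:**
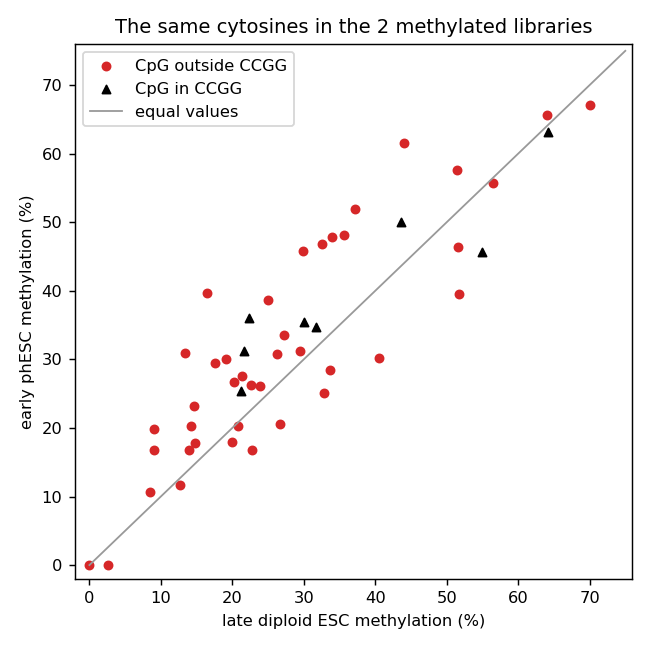
Methylation (%) of each CpG cytosine of the window in late diploid ESCs (x axis) and early phESCs (y axis), with circles outside CCGG, triangles inside CCGG and a line of equal values. The 41 circles follow the line with a correlation of 0.871, and 27 lie above it.

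The 2 strands of a CpG are read in separate reads, so they give a check within a library. In early phESCs the plus and minus strand means were 31.0% and 31.8% over 20 CpGs read on both, with a median absolute difference of 3.54 points. In late diploid cells they were 27.1% and 27.3%, with a median absolute difference of 5.10 points and a largest one of 26.0, at the CpG of position 59. Both strands showed the methylation in both libraries.

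Between the genes, 2 adjoining CpGs differed in level. The printed sequence holds the letters CGCG at -114, where these CpGs lie. In early phESCs the first CpG had 39.5% and 30.2% on its strands (-114 and -113), and the second had 0 on both (-112 and -111). In late diploid cells the first had 51.7% and 40.5%, and the second 2.56% and 0. Among placed promoters, the site enters the counts of these 2 libraries through the high values of the window there. Those counts are therefore a description and not a finding. Of 27 CGCG sites in early phESCs with 1 CpG at 30% or more, this was the only 1 whose other CpG was at 5% or less, and of 13 such sites in late diploid cells it was again the only 1. In the WT adult brain 0 of 168 had such a step, and the median difference within these CGCG sites was 6.75 to 9.06 points in the 3 libraries. The site at -114 was not among those 168, because its minus strand has no value in that library. Whether the DNA of these cells holds the second CpG was not tested.

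**Figure D4:**
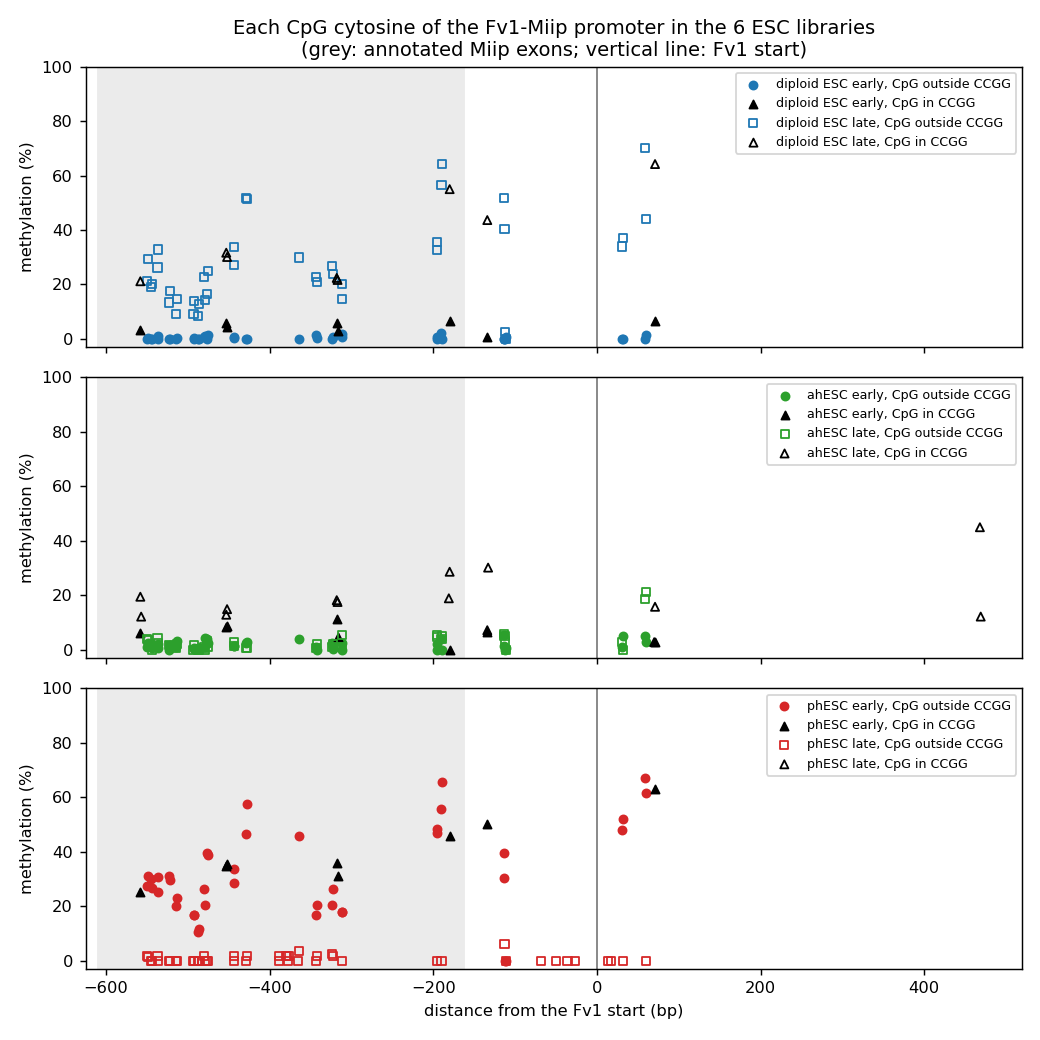
Methylation (%) of each CpG cytosine (y axis) by distance from the Fv1 start in bp (x axis) in diploid ESCs (top), ahESCs (middle) and phESCs (bottom), with filled symbols for early and open ones for late passage, triangles for CCGG, and the Miip exons in grey. The open diploid and filled phESC points follow like courses up to 70.1% and 67.1% at position 59, and both drop at -112 and -111.

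The CCGG sites, where MspI cuts, had their own levels. Their mean was 36.2% in late diploid cells and 40.2% in early phESCs, over 8 cytosines each. In the 9 other libraries with a value it ran from 0 in the BP embryo, where 2 were measured, to 18.3% in late ahESCs. It was above the mean of the other CpGs in each library with a value except the BP embryo. The cytosines that reached 20% only in late ahESCs or the WT adult brain were 3, and they were all CCGG cytosines outside the span measured in late diploid cells or on the strand not measured there.

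Late ahESCs are the library in which this matters. Their mean over the cytosines that reached 20% was 7.64%, but over CpGs outside CCGG it was 3.06%. The CCGG cytosines ranged from 2.78% at position 70 to 45.0% at position 468, within Fv1. Outside CCGG the 4 Fv1 coding cytosines of late ahESCs had a mean of 10.7%, with 18.8% and 21.1% at the CpG of position 59, and the stretch from -444 to -323 in the Miip exons had 1.43%. In early ahESCs that CpG had 4.98% and 2.88%.

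The low values of the remaining libraries were not spread evenly either. In the BM brain at E19.5 the stretch from -550 to -475 had 5.29% and the stretch from -444 to -323 had 0.893%. On the plus strand of the first stretch 6 of 9 cytosines had the same value, 6.76%, and on the minus strand 6 of 9 had 3.45%. In the BM embryo the minus strand of the stretch from -444 to -323 had 7.27 to 10% at its 5 cytosines, and the plus strand 0 to 1.64% at 4. How many reads lie behind these equal values is unknown.

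Among embryos and brains, 0 comparisons passed 25 points. Over the cytosines that reached 20%, the BM embryo differed from the WT embryo by +1.31 points over 41 cytosines, and 1.39% of tiles were called higher and 0.0306% lower. The BP embryo differed from the WT embryo by -0.481 points over 19 cytosines, the fewest of any comparison, where 1.16% of tiles were called higher and 0.169% lower. The BM and BP embryos differed by -0.0501 points, with 0.907% of tiles called higher in BM and 0.158% lower. The tissues of the WT libraries, adult brain and embryo, differed by +0.106 points, with 3.53% of tiles called higher in brain and 2.51% lower. The BM adult brain differed from the WT adult brain by -1.35 points, and from the BM brain at E19.5 by -3.32 points, where 0.0228% and 5.87% of tiles were called lower and 0.0179% and 0.256% higher. The WT embryo differed from early diploid ESCs by +0.619 points, where 14.1% of tiles were called higher and 4.93% lower. The promoter was low in each of these libraries. Setting the BM adult brain beside that at E19.5, or the WT adult brain beside the WT embryo, crosses the sets of libraries.

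The BM embryo was set against early phESCs, the cell type used to make it, although the embryo carries a deletion that these WT cells lack. The embryo also came from an oocyte, and late phESCs had 0.943% over 27 cytosines that reached 20%. Whether methylation changed between cell and embryo was not tested. The promoter had 3.16% in the BM embryo and 37.3% in early phESCs over 41 cytosines that reached 20%, a difference of -34.1 points, and over all listed cytosines it was -16.2 points, within 25. Of 41 CpG cytosines outside CCGG 39 were lower in the embryo and 0 higher. Of 48909 tiles 0.229% were called lower and 66.9% higher in the embryo, and the median tile was 33.1 points higher. The BP embryo differed from early ahESCs by -2.0 points, where 2.74% of tiles were called lower and 16.3% higher.

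Promoters of other genes give the level against which both members can be read. A promoter here was the stretch from 250 bp before to 50 bp after a RefSeq start, with at least 6 measured CpG cytosines outside CCGG. For a gene with several starts, the start with the most listed CpG cytosines was used. For Miip this was the start at -463, and the level at its other RefSeq start is not given. The median promoter had 0.455 to 0.954% in the 6 ESC libraries. Fv1 had 0.339% in early and 35.5% in late diploid cells, 1.96% and 3.59% in early and late ahESCs, and 38.6% and 0.568% in early and late phESCs. Miip had 0.510% and 23.4% in diploid cells, 1.71% and 1.36% in ahESCs, and 27.0% and 0.865% in phESCs. The Miip promoter at that start was thus lower than that of Fv1 in both methylated libraries, and close to the median of all promoters in early diploid cells.

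Few promoters gained methylation where these did. The window was chosen for its changes between these ESC libraries, so its rank among promoters in them is a description and not a finding. In diploid passage 2 of 7037 promoters were called higher (0.0284%), Fv1 and Clcn4, which encodes a chloride and proton exchanger, and 160 were called lower (2.27%). Miip, read at its start at -463, rose by 22.9 points there, within the limit. In early phESCs against diploid cells 4 of 7049 were called higher (0.0567%), Fv1, Miip, Clcn4 and Pttg1, which encodes securin, the inhibitor of separase. In early phESCs against ahESCs 3 of 7010 were called higher (0.0428%), Fv1, Miip and Pttg1. In late ahESCs against late diploid cells Fv1 was the only one of 6638 called lower (0.0151%), and in late phESCs against late diploid cells Fv1 and Clcn4 were the 2 called lower (0.0311%). In late against early phESCs 9 of 6493 were called lower (0.139%), and the differences of Fv1 and Miip were -38.0 and -26.1 points. In the BM embryo against early phESCs Fv1, Pttg1 and Cck, which encodes cholecystokinin, were the 3 of 6939 called lower (0.0432%), and 3.2% were called higher. Of 6221 promoters measured in all 6 ESC libraries, 2 were at least 25 points above early diploid cells both in late diploid cells and in early phESCs, Fv1 and Clcn4. Clcn4 had 47.1% in early ahESCs and 70.9% in the BM embryo over its wider window. The shared window of Fv1 and Miip had 2.85% in early ahESCs and 3.16% in the BM embryo.

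The promoters whose profile over the 6 ESC libraries was most like that of the window were sought among 897 with at least 10 cytosines that reached 20%, from 1000 bp before to 500 bp after the start. The closest by root mean square difference were 2810429I04Rik, at 7.57 points, and Pttg1, at 9.06, followed by Catsperg1 (10.2), Abca17 (11.2) and Cyp2r1 (11.6). By correlation over the 6 libraries, among 298 with a span of at least 25 points, the order was 2810429I04Rik (0.908), Catsperg1 (0.839), Pttg1 (0.811), Clcn4 (0.765) and Cyth3 (0.690). 2810429I04Rik, on chromosome 13, had 1.52% and 16.3% in early and late diploid cells and 31.4% and 4.78% in early and late phESCs. Unlike the window it had 22.7% in the BM brain at E19.5, where the window had 4.20%.

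The neighbours of Fv1 and Miip did not share the pattern. The promoters of Zfp933, with a start at -20561, and of Mfn2, which encodes a mitofusin and starts at 35682, had at most 2.04% in any ESC library. The same was true of Plod1, Agtrap, Draxin, Mad2l2, Fbxo6, Fbxo44 and Fbxo2 in the ESC libraries that measured them, with at most 1.29%. The nearest tile with a mean in both diploid libraries, 6004 bp to the side of Miip, went the other way, from 87.5% to 32.2%. These means are over 6 and 9 cytosines, which are not the same set. The tile 6004 bp to the side of Fv1 had values at 2 cytosines in each diploid library, too few for a mean. The tile just beyond the window on the side of Fv1 had 68.5% in late ahESCs and 32.7% in the WT adult brain, over 6 cytosines, and no value in the other ESC libraries.

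**Figure D5:**
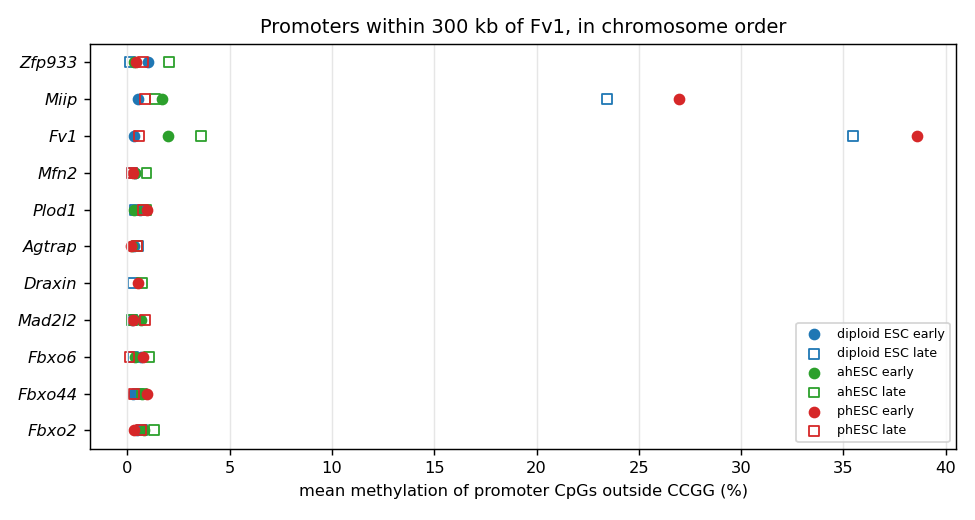
Mean methylation (%) of the promoter CpGs outside CCGG (x axis) of Fv1, Miip and the neighbouring genes in chromosome order (y axis), for the 6 ESC libraries, with filled symbols for early and open ones for late passage. Fv1 and Miip reach 38.6% and 27.0% in early phESCs and 35.5% and 23.4% in late diploid cells, and the neighbours stay at or below 2.04%.

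Genes with related roles were taken from 3 lists. Of 25 other genes that restrict retroviruses or answer to interferon, 5 to 8 had a measured promoter in each comparison of ESC libraries, and 0 of them passed 25 points. Over all promoters measured, those called higher and lower were 0.0284% and 2.27% in diploid passage, 0% and 1.63% in ahESC passage and 0.0154% and 0.139% in phESC passage. At early passage they were 0.0567% and 1.86% in phESCs against diploid cells, 0.0564% and 0.0846% in ahESCs against diploid cells, and 0.0428% and 1.43% in phESCs against ahESCs. At late passage they were 0.0452% and 0.0151% in ahESCs and 0.0467% and 0.0311% in phESCs against diploid cells, and 0.0472% and 0.0157% in phESCs against ahESCs. The lists are short against such shares, so a count of 0 says little of them. Samhd1, which cuts the supply of nucleotides for reverse transcription, had at most 0.622% in the 6 ESC libraries, and Adar, an RNA editing enzyme, at most 1.53%. Of 22 genes that silence retroelements or set DNA methylation, 13 to 15 were measured and 0 passed 25 points. Atf7ip, a partner of the histone methyltransferase Setdb1, had 5.27% and 9.57% in early and late diploid cells, 3.12% and 4.92% in ahESCs, and 8.55% and 1.29% in phESCs. Of 9 genes tied to the Miip protein, 5 were measured and 0 passed 25 points. In diploid passage the list medians were -0.0796, 0.147 and 0.0108 points, beside -0.0801 over all 7037 promoters.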

How the data were processed

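RRBS of 12 mouse libraries, 1 per group, was read from 1 deposited table. Its values are the methylation percent of each cytosine. The submitters' processing notes name Bismark 0.13.1, Trim Galore and build mm9 for the deposited percent values. Missing values are marked N, and coverage is not given. The members and gene lists were chosen with earlier results of these data known.

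Sequence context came from RefSeq promoters (GRCm38.p6) and GENCODE M21 exons, placed on mm9 by exact match of CG and GC to listed positions. This comes close to a conversion of coordinates between builds, and none was otherwise made. Of 32851 promoters 11097 were placed (33.8%), and 2 at a false shift of 2017 bp (0.00609%).

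A level is the mean over cytosines. Differences used cytosines measured in both libraries, and 25 points or more was called. Tiles of the window's length needed 6 cytosines at 20% or more in any library. Named genes are Fv1, Miip, listed genes past 25 points and the 5 promoters most alike. Promoters called beside Fv1 and Miip, neighbouring genes, Samhd1, Adar and Atf7ip were named after their values were seen. The tile count was run on simulated data with a fixed number of independent reads per cytosine. The depth of the real libraries is unknown, so that run does not give the error of a call here. Tables were handled with pandas 2.3.3 and NumPy 2.4.6 in Python 3.11.15, and drawn with Matplotlib 3.10.9.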

Additional observations from a re-analysis of the deposited data

Results flagged for a closer look

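The passage differences of diploid ESCs and phESCs went opposite ways at this promoter: +31.4 points over 41 cytosines that reached 20% in diploid cells, and -33.2 points over 27 in phESCs. Outside CCGG, without that limit, 40 of 41 cytosines were higher at late passage in diploid cells and 33 of 34 were lower in phESCs. With 1 library per group the difference between them was not tested. The phESC comparison crosses the sets of libraries, and the diploid comparison does not.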

How the results depend on the processing

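The 18 comparisons were recomputed with all listed cytosines, with limits of 10% and 30% in place of 20%, with each library's own cytosines, with 20% reached outside the pair, with medians, without CCGG, and within 500 bp of the Fv1 start. Of 144 alternative values 134 kept their side of 25 points, 10 fell within it and 0 called differences reversed. The 134 include all values of the uncalled differences, which were far from the limit, and the 10 all belong to called ones. Among uncalled differences, 10 alternative values changed sign or became 0. With all listed cytosines, which add GpCs near 0, diploid passage gave 14.9 points, phESC passage -15.1, early phESCs against diploid cells 17.0 and against ahESCs 16.2, late ahESCs and late phESCs against late diploid cells -12.3 and -12.6, and the BM embryo against early phESCs -16.2. The levels of late diploid cells and early phESCs were then 15.6% and 17.7%. With no replicates there is no error against which a move of a level could be judged. With the 10% limit, late ahESCs and late phESCs against late diploid cells gave -22.9 and -24.0 points, and with own cytosines late ahESCs gave -24.97. Over all alternatives diploid passage ran from 14.9 to 36.2 points. Depth is unknown, so values near 0 cannot be told from each other. No paired analysis was possible because each group holds 1 library.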
